A study of Mus musculus with 45 samples.

Results

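The genes followed here mark or maintain the fibroblast state, 10 of the 35675 genes summed from the deposited transcripts, and were measured while mouse embryonic fibroblasts (MEFs) were turned into muscle cells by MyoD. They were taken by name: the transcription factors Prrx1, Prrx2, Twist1, Twist2, Snai1, Snai2 and Osr1, and the surface genes Pdgfra, Pdgfrb and Thy1. All 10 were measured, and all 10 were among the 17325 genes that passed the filter on low counts. The series holds 45 poly-A, strand-specific RNA-seq libraries in 15 groups of 3. Untreated MEFs were the start. They carried a MyoD transgene that doxycycline switches on, and were sampled after 2, 4, 6, 8 and 10 days of doxycycline, either with MyoD alone, which the labels call myotubes, or with MyoD and a medium named F/R/C, which the labels call muscle fibers and progenitors. What F, R and C stand for is not given in the sources used here. The other 4 groups were bulk induced myogenic progenitor cells (iMPCs), described as established clones that no longer need doxycycline and labelled with 13 days of doxycycline and F/R/C, Pax7-GFP+ cells sorted from iMPCs, primary myoblasts from skeletal muscle, and Pax7-GFP+ cells sorted from those. All 15 groups share the genotype label Tg:Pax7-nGFP/C57BL6;DBA2, in which a nuclear GFP reports Pax7, the paired-box factor that marks muscle stem cells. The embryos' age, the promoter in front of MyoD and the number of clones are not given in the sources used here. Nothing says that the 3 libraries of a group came from separate cultures or animals, so p-values measure the spread between these libraries, which may be technical.

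Prrx1 and Prrx2 are paired-type homeodomain factors of limb and craniofacial mesenchyme. Twist1 and Twist2 are basic helix-loop-helix (bHLH) factors, and Twist1 is known to hold back MyoD activity by competing for E proteins and E-box sites (CANNTG). Snai1 and Snai2 are zinc-finger repressors known for silencing epithelial genes. Osr1 is a zinc-finger factor of connective tissue progenitors. Pdgfra and Pdgfrb are the receptor tyrosine kinases for platelet-derived growth factors (PDGFs), with Pdgfra marking fibro-adipogenic cells of muscle and Pdgfrb also marking pericytes. Thy1 encodes the GPI-anchored protein CD90, used to sort fibroblasts. In these bulk libraries, fewer cells of a type and less RNA per cell cannot be told apart.

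Libraries held 15.6 M to 36.3 M estimated reads. The induced gene matched the labels: Myod1 averaged 3.55 CPM (read counts scaled to 1 common, normalised library size) in MEFs, 2624 on day 2 of MyoD alone and 958 on day 2 with F/R/C. Summed over 10 skeletal muscle genes, MEFs held 60.4 to 162 CPM, whereas day 10 held 9554 to 32720 with MyoD alone and 13010 to 21410 with F/R/C. Another 8 fibroblast genes (Col1a1, Col1a2, Col3a1, Dcn, Lum, Postn, Fn1 and Loxl1) summed to between 17890 and 22860 CPM in MEFs, while day 10 held 13790 to 29700 CPM under MyoD alone and 1254 to 4861 under F/R/C. Much of that sum was Fn1, with a mean of 10150 of 19610 CPM in MEFs and 13930 of 20940 on day 10 of MyoD alone. Dcn and Lum, in the same sum, were called lower on that day, as given below. Adipocyte, endothelial and immune marker sums never exceeded 11.2 CPM. Some libraries stood apart. MEF replicate 1 held 67.9 CPM of Osr1 against 6.32 and 6.53 in the other two, iMPC replicate 2 held 508 CPM of Pdgfra against 44.2 and 13.1, and myoblast replicate 3 held 1924 CPM of summed muscle genes against 33750 and 17430. The 6 sorted libraries were also quantified with another fragment-length setting, which shifts TPM. Whether it also shifted estimated counts of genes that share reads with other transcripts was not tested. No other library had this setting, so in comparisons of sorted with other cells it cannot be told apart from sorting. On day 10 of MyoD alone, replicate 2 had the highest Myod1 (2023 CPM against 741 and 622) and the highest muscle sum. On each of the 5 days of this route the library numbered 2 was lowest in Prrx1, Twist1, Twist2, Snai2, Osr1, Pdgfra, Pdgfrb and Thy1. With F/R/C the library of that number was lowest in Twist1, Twist2, Osr1, Pdgfra and Thy1 on all 5 days. The part of these differences in the results below was not tested.

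The promoters of 3 members are shown because their genes moved most strongly in opposite directions with MyoD, a factor that binds E-boxes. Of the 10 members, 6 have an entry in the RefSeq promoter table (GRCm38.p6), and the 250 bases before the start site are printed 5′ to 3′ on the gene's strand, with a CANNTG match on either strand in capitals. Snai1 and Prrx2 rose and Pdgfra fell.
Snai1, chr2:167537945-167538194, plus strand: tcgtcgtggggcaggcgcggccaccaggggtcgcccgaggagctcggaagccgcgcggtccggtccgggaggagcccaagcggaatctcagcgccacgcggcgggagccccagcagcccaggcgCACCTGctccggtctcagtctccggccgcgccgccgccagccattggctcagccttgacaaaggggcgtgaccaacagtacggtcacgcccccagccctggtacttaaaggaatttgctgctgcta
Prrx2, chr2:30845117-30845366, plus strand: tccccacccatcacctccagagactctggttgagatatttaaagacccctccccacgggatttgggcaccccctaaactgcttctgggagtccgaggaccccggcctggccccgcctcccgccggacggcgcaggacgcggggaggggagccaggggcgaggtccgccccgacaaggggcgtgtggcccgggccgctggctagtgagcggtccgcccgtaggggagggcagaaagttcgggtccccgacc
Pdgfra, chr5:75152001-75152250, plus strand: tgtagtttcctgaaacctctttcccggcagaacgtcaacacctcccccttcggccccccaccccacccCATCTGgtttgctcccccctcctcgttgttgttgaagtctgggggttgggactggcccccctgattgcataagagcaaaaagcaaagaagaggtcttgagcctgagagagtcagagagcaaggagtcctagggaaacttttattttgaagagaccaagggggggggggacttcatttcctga
Snai1 held 1 match, CACCTG, which starts 126 bases before the start site and is counted under CAGGTG below, its reading on the other strand. Pdgfra held CATCTG, which starts 182 bases before its own. Prrx2 held none, and neither did the windows of Prrx1, Twist1 and Twist2. Of 32851 promoter windows of the same length, 66.2% held CANNTG, 17.2% held CAGGTG and 13.0% held CAGCTG, the last in none of the 6 members. Twist1 held TATAAA 126 bases before its start, as 12.4% of all windows did. A match in these letters is a description of the window and not a binding site.

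In MEFs the members spanned a wide range in TPM, the unit that also corrects for transcript length. Thy1 stood at 2990 ± 267 TPM (SD, n = 3) and Prrx1 at 292 ± 82.2, followed by Twist2 at 179 ± 52.7 and Pdgfra at 87.8 ± 19.5. Snai2 (60.7 ± 15.2), Prrx2 (42.1 ± 17.2), Pdgfrb (32.9 ± 10.6), Twist1 (32.6 ± 12.5), Osr1 (31.2 ± 40.3) and Snai1 (21.9 ± 2.2) followed, and neighbours in that lower order lay within each other's spread. The members therefore started from a high surface gene, a high homeodomain factor and several factors at a low level.

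The time course asked which of these genes were lost, and when. A gene was called changed where edgeR's quasi-likelihood test gave a Benjamini-Hochberg adjusted p below 0.05 over all genes tested with a log2 fold change of at least 1, and it is called erased below where it was called lower and its group mean fell under 10% of the MEF mean. After 2 days of MyoD alone, 6 of the 10 members were lower than in MEFs and 2 higher, beside 10.1% and 12.3% of all genes tested (22.4% in either direction). The same split was seen on day 4 (all genes: 11.8% lower, 16.5% higher, 28.3% in all) and day 6 (10.8%, 16.9% and 27.7%). On day 8 it was 4 lower and 2 higher (6.16%, 14.6% and 20.8%), as on day 10 (4.64%, 14.3% and 18.9%). Under MyoD alone fewer members were thus called lower on days 8 and 10 than before, and the share of all genes called lower was also smaller. No member was called between days 2 and 10 of that route, as given below. Under F/R/C more members were called lower on day 10 than on day 2, and the share of all genes called lower was also larger. On day 2 Snai2 and Pdgfra were called lower and Prrx2 and Snai1 higher (all genes: 8.93%, 11.5% and 20.4%), and on day 4 the same except Snai1 (13.2%, 18% and 31.3%). Then 5 were lower and 2 higher on day 6 (13.2%, 19% and 32.2%), 4 and 2 on day 8 (13.3%, 18.4% and 31.7%), and 7 and 1 on day 10 (15.8%, 19% and 34.8%). All these comparisons share the 3 MEF libraries.

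**Figure D1:**
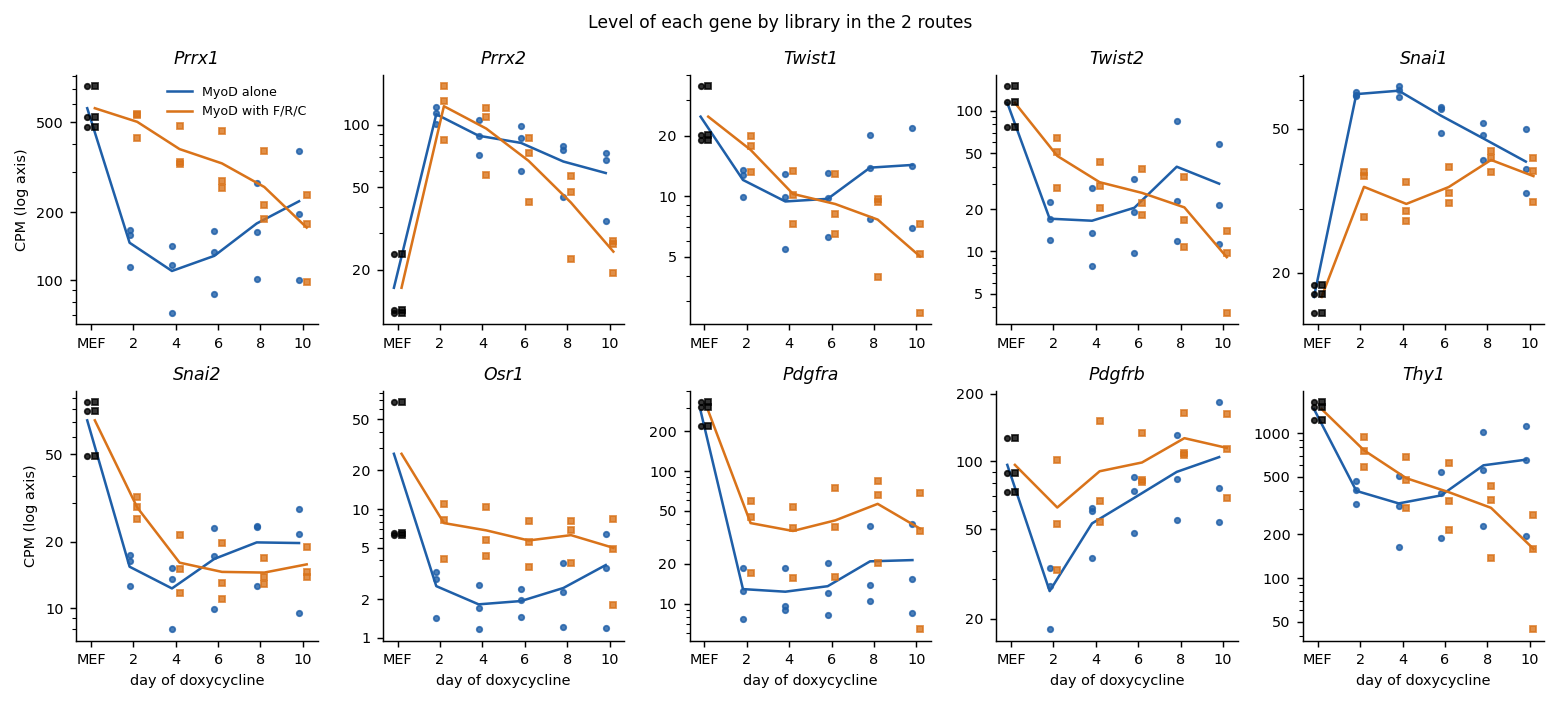
Level of each gene in CPM (log axis) in MEFs and on days 2 to 10 of doxycycline, with 1 point per library, blue circles for MyoD alone, orange squares for MyoD with F/R/C, and lines through the group means. The MEF libraries are the same in both routes and are drawn in black once for each. Prrx1 fell to 114 to 166 CPM on day 2 with MyoD alone but stood at 425 to 543 CPM with F/R/C, whereas Prrx2 and Snai1 rose above the MEF libraries in both.

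Prrx1 (chr1:163245119-163313710, minus strand, GRCm38) fell at once with MyoD alone and slowly with F/R/C. MEFs held 724, 477 and 529 CPM. With MyoD alone day 2 held 159, 114 and 166 CPM, day 4 held 117, 71.6 and 141, and day 10 held 197, 99.9 and 373. No library of these days reached the MEF range. The log2 fold change against MEFs (called the log2 difference from here on) was -1.98 (SE 0.44, adjusted p = 7.87e-04) on day 2 and -1.37 (SE 0.44, adjusted p = 0.0176) on day 10. The day 10 call was lost without MEF replicate 1 or without replicate 1 or 2 of day 10, with values between -2.03 and -1.02 over its 16 alternatives (highest adjusted p 0.236). Under F/R/C day 2 held 543, 425 and 537 CPM, a range that overlapped MEFs, with a log2 difference of -0.20 (SE 0.43, adjusted p = 0.759). Means then went down day by day to 237, 98.3 and 177 CPM on day 10. Prrx1 was called lower from day 8 (-1.16, adjusted p = 0.0272), a call lost without MEF replicate 1 or without replicate 2 or 3 of day 8 (highest adjusted p 0.149), and on day 10 it was lower (-1.75, SE 0.44, adjusted p = 0.00126). Prrx1 was never erased: its lowest mean in the whole series was 19.1% of MEFs, on day 4 of MyoD alone.

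Prrx2 (chr2:30834972-30881251, plus strand), the paralog of Prrx1, moved the other way. From 12.8, 12.4 and 24.0 CPM in MEFs it stood at 101, 122 and 114 CPM on day 2 of MyoD alone and at 130.1, 153 and 84.0 in the F/R/C route. Every library on day 2 lay above every MEF library. The rise was 2.78 (SE 0.49, adjusted p = 4.02e-05) and 2.90 (SE 0.49, adjusted p = 2.54e-05) on the log2 scale. It then waned. By day 10 F/R/C libraries held 27.5, 26.5 and 19.4 CPM, 149% of the MEF mean and no longer called (0.58, adjusted p = 0.295), whereas MyoD alone still held 67.8, 73.3 and 34.2 CPM (1.84, adjusted p = 0.0035). The day 8 call with F/R/C ended without MEF replicate 1 or 2 or without replicate 1 of that day (highest adjusted p 0.0754). About 44.1% of the gene's TPM in MEFs was assigned to a transcript annotated with a retained intron, and 48.2% on day 10 of MyoD alone.

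The TWIST paralogs were both lower than in MEFs by day 10 with F/R/C, and Twist2 was already lower on day 2 of MyoD alone. Twist2 (chr1:91801461-91848028, plus strand) held 76.5, 150.3 and 115 CPM in MEFs and 17.0, 12.0 and 22.3 on day 2 of MyoD alone (log2 difference -2.73, SE 0.88, adjusted p = 0.0146). Leaving out replicate 2 of the day ended the calls on day 2 (-2.56, adjusted p = 0.0695) and day 4 (-2.53, adjusted p = 0.0566), and the day 6 call ended without MEF replicate 2 or without replicate 1 or 2 of that day (highest adjusted p 0.089). By day 10 of MyoD alone its libraries had spread to 21.3, 11.2 and 58.4 CPM and the difference was no longer called (-1.91, adjusted p = 0.0866). The F/R/C libraries held 50.7, 28.5 and 64.2 CPM on day 2 and 14.0, 3.65 and 9.67 on day 10. That last level was 7.99% of MEFs (-3.64, SE 0.91, adjusted p = 0.00122), which made Twist2 the one member erased in the F/R/C route, a call kept when any single library was left out. The earlier F/R/C calls did not hold so: that of day 6 ended without MEF replicate 2 or 3 or without replicate 2 or 3 of that day (highest adjusted p 0.114), and that of day 8 without MEF replicate 2 or without replicate 2 or 3 of that day (highest adjusted p 0.0916).

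Twist1 (chr12:33957671-33959829, plus strand) held 35.4, 20.1 and 19.1 CPM in MEFs. It passed no test with MyoD alone, with 13.5, 9.92 and 12.7 CPM on day 2 (-1.05, adjusted p = 0.283) and 14.2, 6.93 and 21.8 on day 10. Its F/R/C libraries were called lower on day 10 only, at 5.17, 2.63 and 7.27 CPM (-2.30, SE 0.78, adjusted p = 0.014). That call ended without MEF replicate 1 (-1.88, adjusted p = 0.06) or without replicate 2 of day 10 (-1.92, adjusted p = 0.079).

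The SNAIL paralogs moved apart. Snai1 (chr2:167538195-167542814, plus strand) held 17.5, 15.5 and 18.5 CPM in MEFs and 61.9, 61.5 and 63.2 CPM on day 2 of MyoD alone. It was the tightest of the rises, 1.86 on the log2 scale (SE 0.28, adjusted p = 3.35e-06), and was still present on day 10 at 49.8, 38.6 and 33.3 CPM (1.24, adjusted p = 7.89e-04). It went up less with F/R/C, to 38.1, 28.6 and 37.0 CPM on day 2 (1.01, adjusted p = 0.00439), and stood at 31.4, 41.5 and 38.1 CPM on day 10 (1.11, adjusted p = 9.68e-04). The day 2 value with F/R/C lay at the fold limit: without MEF replicate 2 or without replicate 1 or 3 of that day it was under 1, down to 0.94. The same held on day 6 without MEF replicate 2 or without replicate 2 or 3 of that day, down to 0.85. None of the treated libraries named here overlapped the MEF libraries. Snai2 (chr16:14705852-14709385) fell in both routes from day 2 to day 10. MEFs held 48.9, 86.4 and 78.8 CPM, day 2 of MyoD alone held 17.4, 12.6 and 16.3 (-2.21, SE 0.35, adjusted p = 7.71e-06), and day 2 with F/R/C held 28.8, 25.3 and 31.9 (-1.31, adjusted p = 0.00285). On day 10 it stood at 27.7% of MEFs with MyoD alone and 22.2% with F/R/C. With F/R/C its mean went from 40.2% of MEFs on day 2 to 22.55% on day 4. That step was not called by edgeR's test (-0.83, adjusted p = 0.148). Snai2 was therefore reduced from day 2 in both routes, and was never erased.

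Osr1 (chr12:9570116-9581500) was called erased on days 2 to 8 of MyoD alone, but that rested on 1 MEF library. MEFs held 67.9, 6.32 and 6.53 CPM. Day 2 of MyoD alone held 3.26, 1.43 and 2.88 CPM, below all 3 MEF libraries, with a log2 difference of -3.41 (SE 0.95, adjusted p = 0.00567). Without MEF replicate 1 the difference was -1.36 (adjusted p = 0.254). Under F/R/C day 2 held 8.26, 4.13 and 11.0 CPM, which overlapped MEFs, and the calls on day 6 and on day 10 (-2.42, adjusted p = 0.0249) fell to -0.16 and -0.28 without that library (adjusted p = 0.9 and 0.811). The day 10 call of either route and the day 6 call with F/R/C also ended without replicate 1 or 2 of the day, and the latter without replicate 3 (highest adjusted p 0.121).

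Pdgfra (chr5:75152292-75198215) was the member most deeply reduced by MyoD alone. Its libraries went from 331, 302 and 219.9 CPM in MEFs to 12.5, 7.63 and 18.5 on day 2, 4.53% of the MEF mean, with a log2 difference of -4.46 (SE 1.17, adjusted p = 0.00327). It stayed erased on all 5 days, at 15.3, 8.57 and 40.1 CPM on day 10 (-3.73, adjusted p = 0.0119). The calls on days 2 to 6 held in all 16 alternatives, while those on days 8 and 10 ended without replicate 2 of the day (adjusted p = 0.0676 and 0.0785). Libraries with F/R/C held 45.1, 16.9 and 59.5 CPM on day 2, 14.3% of MEFs, and 35.5, 6.42 and 68.5 CPM on day 10. Both were called lower (-2.81, adjusted p = 0.0419, and -2.95, adjusted p = 0.0222), and no F/R/C library reached a MEF library on any day. The day 2 call with F/R/C was lost when any 1 library was left out (highest adjusted p 0.159), and the day 10 call without replicate 1 or 2 of that day (highest adjusted p 0.104). On day 4 the F/R/C call ended without replicate 2 or 3 of that day (highest adjusted p 0.087), and on day 6 without MEF replicate 1 or 2 or replicate 2 or 3 of that day (highest adjusted p 0.119). The transcripts shifted as well: Pdgfra-201 held 70.3% of the gene's TPM in MEFs, 28.4% on day 2 of MyoD alone, 53.0% on day 2 with F/R/C and 72.2% on day 10 with F/R/C, shares that were not tested and rest on few reads where the gene is low.

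Pdgfrb (chr18:61045150-61085061) behaved otherwise, with no call against MEFs on any day in either route. MEFs held 128, 73.0 and 89.0 CPM. On day 2 of MyoD alone the libraries held 33.7, 18.0 and 28.0 CPM, all below MEFs (-1.86, SE 0.75, adjusted p = 0.0512). By day 10 they were at 183, 53.9 and 76.2 CPM, 108% of the MEF mean (0.11, adjusted p = 0.924), and with F/R/C at 114, 68.9 and 162. The day 2 libraries of MyoD alone lay below MEFs and the day 10 libraries overlapped them, and neither day passed the test.

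Thy1 (chr9:44043384-44048579, plus strand), the most abundant member, dropped in both routes, but by different amounts at the end. MEFs held 1235, 1520 and 1635 CPM and day 2 of MyoD alone held 408, 323 and 467 (-1.87, SE 0.75, adjusted p = 0.0498). That call was lost when any 1 library was left out (highest adjusted p 0.145), although no library overlapped. The day 4 call ended without replicate 2 of that day (-1.92, adjusted p = 0.0921), and the day 6 call without MEF replicate 2 or 3 or without replicate 1 or 2 of that day (highest adjusted p 0.124). From day 8 the call was gone, and day 10 held 655, 196 and 1116 CPM (-1.16, adjusted p = 0.239). The F/R/C libraries held 750, 587 and 946 CPM on day 2 (-0.94, adjusted p = 0.339). They held 618, 216 and 341 on day 6, the first day called (-1.90, adjusted p = 0.036), and 160, 44.5 and 274 on day 10 (-3.20, SE 0.79, adjusted p = 0.0011). The day 6 call with F/R/C was lost without MEF replicate 2 or 3 or without replicate 2 or 3 of that day (highest adjusted p 0.124) and the day 8 call without replicate 2 of that day (-1.86, adjusted p = 0.0832), while the day 10 call held in all 16 alternatives. The word Thy1 is part of the deposited names of the fibroblast-derived and iMPC libraries without an explanation, so whether cells were selected on this protein is not given in the sources used here.

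**Figure D2:**
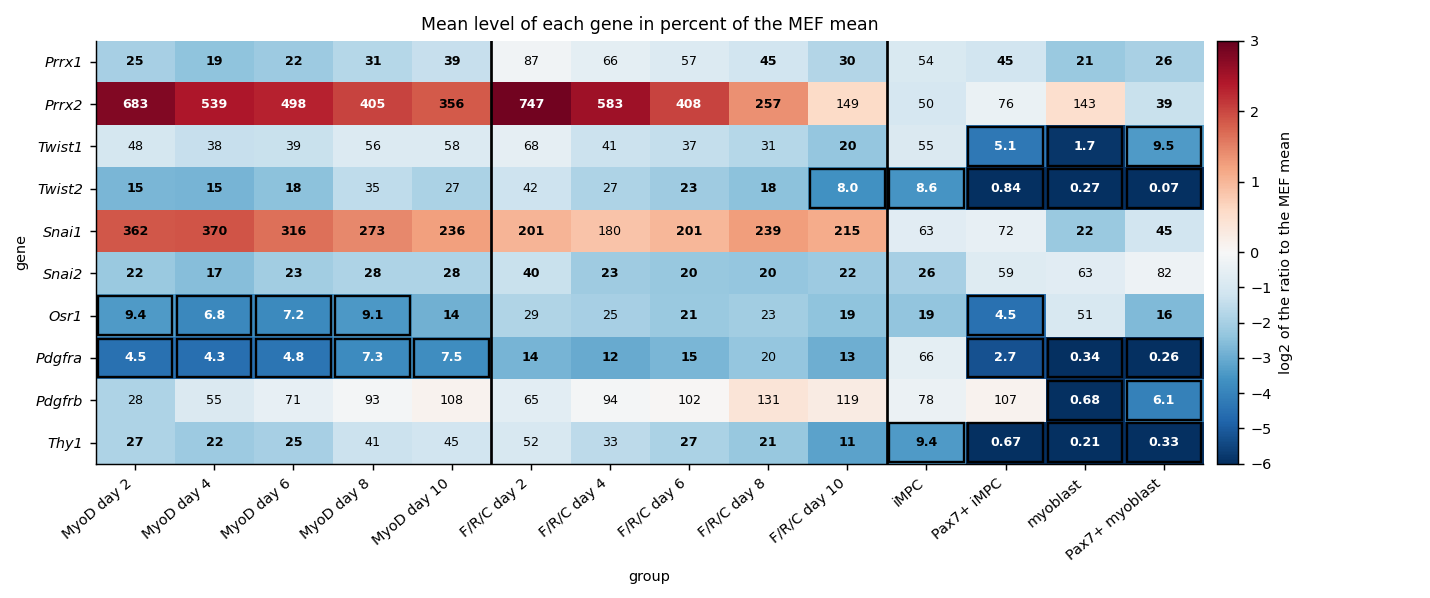
Mean CPM of each gene (rows) in every group (columns) as a percent of its MEF mean, with colour on a log2 scale and the percent printed in each cell. Pdgfra is under 10% on all 5 days of MyoD alone, while Twist2 and Thy1 are under 1% in the sorted iMPC cells and in both myoblast groups.

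Across the 2 routes the timing can be counted. With MyoD alone, Prrx1, Snai2, Osr1 and Pdgfra were called lower on all 5 days and Twist2 and Thy1 on days 2, 4 and 6. Under F/R/C, Snai2 was called lower on all 5 days, Pdgfra on 4 of them (not day 8), Twist2 and Thy1 from day 6, Prrx1 from day 8, Osr1 on days 6 and 10 and Twist1 on day 10. These days are those of the calls, and many of them ended when 1 library was left out, as given above for each gene. The Snai2 calls of both routes did not. Neither did the calls of Prrx1 on days 2 to 8 and Pdgfra on days 2 to 6 of MyoD alone. With F/R/C the day 10 calls of Prrx1, Twist2 and Thy1 also held. With MyoD alone 9 gene and day pairs were erased, all of them Osr1 or Pdgfra, and 1 with F/R/C. No step between consecutive sampling days was called: 0 of 80 tests passed with edgeR, 1 had an unadjusted p under 0.05, and DESeq2 and limma called 0. Over all genes tested, 2.49% were called between days 2 and 4 with MyoD alone and 2.93% with F/R/C. Every later step called 0 of all genes, except 1 gene between days 6 and 8 with F/R/C. The lack of calls is thus not particular to the members.

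Day 10 was compared with day 2 within each route, a comparison added after the consecutive days gave no call. In the F/R/C route 4 members fell (6.18% of all genes tested were lower): Prrx1 (-1.55, SE 0.44, adjusted p = 0.0088), Prrx2 (-2.32, SE 0.48, adjusted p = 6.21e-04), Twist2 (-2.39, SE 0.87, adjusted p = 0.0383) and Thy1 (-2.26, SE 0.76, adjusted p = 0.0264). With MyoD alone edgeR called 0 of 10 (6.26% of all genes in either direction), 3 members had an unadjusted p under 0.05, DESeq2 called 0 and limma on TPM called 1. The highest value there was Pdgfrb at 1.98 (adjusted p = 0.0891). With F/R/C the Prrx2 call held whichever library was left out. The Prrx1 call ended without replicate 2 of day 10 (highest adjusted p 0.0919), the Thy1 call without replicate 1 or 3 of day 2 or replicate 1 or 2 of day 10 (highest 0.146), and the Twist2 call without any library other than replicate 1 of day 10 (highest 0.18).

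Setting the routes side by side on the same day showed on which days a fibroblast gene stood higher or lower with F/R/C. On day 2, 1 member was called, Prrx1, which was higher with F/R/C by 1.78 (SE 0.44, adjusted p = 0.00984), beside 2.13% of all genes called higher and 2.8% lower (4.93% in all). On day 4 Prrx1 was higher by 1.79 (SE 0.44, adjusted p = 0.0033; 6.58% of all genes higher) and Snai1 lower (-1.04, SE 0.27, adjusted p = 0.00499; 6.66% lower). Prrx1 was also higher on day 6, by 1.36 (SE 0.44, adjusted p = 0.0204; 8.23% higher, 7.14% lower). On day 8 none was called by edgeR, DESeq2 or limma, and 0 had an unadjusted p under 0.05, while 18.7% of all genes were called (9.46% lower, 9.2% higher). On day 10, 2 were lower with F/R/C (13.4% of all genes lower and 9.91% higher, 23.3% in all): Thy1 (-2.04, SE 0.76, adjusted p = 0.0306) and Prrx2 (-1.25, SE 0.46, adjusted p = 0.0289). Those 2 calls hung on single libraries, with 4 of 6 ending the Thy1 call and 5 of 6 the Prrx2 call: without replicate 3 of day 10 of MyoD alone, the highest in Thy1, the Thy1 difference was -1.33 (adjusted p = 0.194), and without replicate 2 of the same group the Prrx2 difference was -0.94 (adjusted p = 0.144). The Prrx1 call on day 2 ended without replicate 2 of MyoD alone (1.63, adjusted p = 0.0742), that of day 6 without replicate 1 or 2 of MyoD alone or replicate 1 with F/R/C (down to 1.05, adjusted p = 0.101), and that of Snai1 on day 4 without replicate 1 of MyoD alone or replicate 2 or 3 with F/R/C (down to -0.94).

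The change of that difference with time was tested as an interaction. For Prrx1 the F/R/C difference on day 10 minus that on day 2 was -2.16 (SE 0.61, adjusted p = 0.0264), the one member called (3.77% of all genes lower, 6.01% in either direction). On day 2 the libraries with F/R/C lay at 425 to 543 CPM and those without at 114 to 166, while on day 10 they lay at 98.3 to 237 and 99.9 to 373 and overlapped. The Prrx1 call ended without any of 6 of the 12 libraries (replicates 2 and 3 of day 2 and 1 and 3 of day 10 of MyoD alone, replicate 1 of day 2 and 2 of day 10 with F/R/C), with adjusted p up to 0.144. For Thy1 the same quantity was -2.97 (SE 1.05, adjusted p = 0.0697). Averaged over the 5 days, Prrx1 (1.02, SE 0.19, adjusted p = 3.43e-05), Osr1 (1.38, SE 0.40, adjusted p = 0.00368) and Pdgfra (1.41, SE 0.46, adjusted p = 0.00918) were higher with F/R/C, beside 11.6% of all genes (22.1% in either direction). Libraries of the same replicate number deviated together across days, for example days 8 and 10 (mean r 0.785 with MyoD alone, 0.694 with F/R/C). The fit took all libraries as independent, so the SE and adjusted p of these means do not account for that. The Prrx1 mean fell under the fold limit without any of 4 single libraries, down to 0.94.

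**Figure D3:**
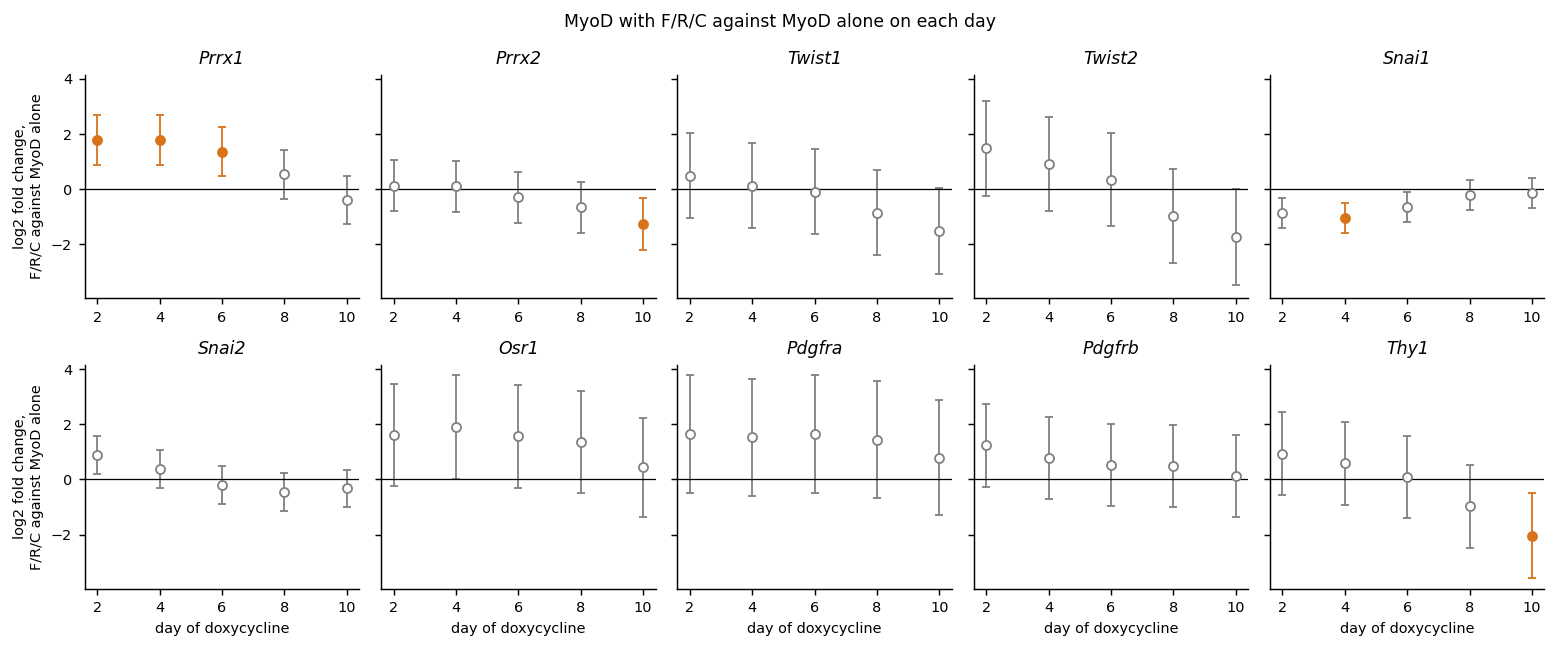
Log2 fold change of MyoD with F/R/C against MyoD alone on each day of doxycycline for the 10 genes, with bars of the 95% confidence interval and filled points where the difference was called. Prrx1 goes from 1.78 on day 2 to -0.39 on day 10, and Thy1 stands at -2.04 on day 10.

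The iMPCs and the primary muscle cells were then compared with MEFs. In bulk iMPCs 4 members were lower (16.2% of all genes): Twist2 (-3.54, adjusted p = 0.00143), Thy1 (-3.41, adjusted p = 6.04e-04), Snai2 (-1.97, adjusted p = 1.46e-05) and Osr1 (-2.39, adjusted p = 0.0258), the last at -0.25 (adjusted p = 0.834) without MEF replicate 1. Twist2 held 10.5, 17.8 and 1.02 CPM and Thy1 116, 126 and 171 CPM, so both were erased. Prrx1, at 249.6, 395 and 283 CPM, was not called (-0.90, adjusted p = 0.0779). Pdgfra held 44.2, 508 and 13.1 CPM, with replicate 2 far above the others, and gave no call (-0.59, adjusted p = 0.641).

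Sorted Pax7-GFP+ iMPC cells held less of several fibroblast genes than bulk iMPCs, and kept others. In the sorted cells 6 members were lower than in MEFs (21.7% of all genes), and 5 were erased. Thy1 held 22.4, 4.56 and 2.33 CPM (-7.23, adjusted p = 1.53e-07), Twist2 2.69, 0.202 and 0 CPM (-6.86, adjusted p = 3e-06), and Twist1 2.69, 1.09 and 0 CPM (-4.28, adjusted p = 9.2e-05). Pdgfra held 21.5, 1.09 and 0.0517 CPM (-5.23, adjusted p = 4.29e-04) and Osr1 1.08, 1.54 and 1.03 CPM (-4.46, adjusted p = 3.31e-04). Replicate 1 of these sorted cells was the highest in Thy1, Twist2, Twist1 and Pdgfra, and it also held 151.5 CPM of Tubb3, a neuronal tubulin, against 11.35 and 22.63 in the other two. The 4 glial genes listed with Tubb3 summed to at most 3.616 CPM in these libraries, and the part of such cells in the result was not tested. Prrx1 was reduced but present, at 271, 309.5 and 202 CPM (-1.14, adjusted p = 0.024), a call lost without MEF replicate 1 or without replicate 2 or 3 of the sorted cells (highest adjusted p 0.145). Pdgfrb stood at 122, 135 and 53.3 CPM, 107% of MEFs (0.10, adjusted p = 0.927), beside pericyte and smooth muscle markers of which Notch3 held 620.3 to 711.6 CPM against 59.95 to 69.86 in MEFs and the 5 others summed to 19.01 to 35.82 CPM against 61.99 to 126. The part of these cells in the Pdgfrb level was not tested. Against bulk iMPCs, Thy1 (-3.82, adjusted p = 3.17e-04), Twist1 (-3.41), Twist2 (-3.31) and Pdgfra (-4.64, adjusted p = 0.00167) were lower and Snai2 higher (1.21, adjusted p = 0.00349), beside 20.5% and 9.88% of all genes. The Pdgfra call ended without iMPC replicate 2 (-1.87, adjusted p = 0.133).

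Primary myoblasts held the 3 surface genes and both Twist genes near 0. Against MEFs 7 members were lower (13.9% of all genes), 5 of them erased. Thy1 held 6.15, 2.35 and 0.655 CPM (-8.93, adjusted p = 3.5e-08), Pdgfra 0.583, 2.03 and 0.328 CPM (-8.10), and Pdgfrb 0.404, 1.28 and 0.291 CPM (-7.10, adjusted p = 7.42e-07). The Twist genes were as low, at 0.269, 0.926 and 0.109 CPM for Twist1 (-5.74) and 0.0449, 0.125 and 0.764 for Twist2 (-8.51). Prrx1 at 157, 165 and 43.6 CPM (-2.24) and Snai1 at 4.80, 4.76 and 1.56 CPM (-2.21) were reduced. Snai2 stayed high, at 42.2, 36.1 and 57.5 CPM, 63.4% of MEFs, and Osr1 was 2.33, 1.10 and 37.5 CPM, with the high value in the library of low muscle genes. In sorted Pax7-GFP+ myoblasts 9 members were lower (15.3% of all genes), with the same 5 erased, and Snai2 was the exception at 64.1, 59.8 and 51.7 CPM (-0.29, adjusted p = 0.495). Pdgfrb there was 0.847, 16.7 and 0 CPM (-4.02, adjusted p = 1.83e-04). Its difference from bulk myoblasts, 3.08 (adjusted p = 0.0207, with 2.2% of all genes higher), was -0.52 (adjusted p = 0.807) without replicate 2 of the sorted cells. That call also ended without replicate 1 or 3 of the bulk myoblasts (adjusted p = 0.0822 and 0.0776). Calls of Prrx2, Snai1 and Osr1 in the sorted myoblasts also ended without single libraries, replicate 3 of that group among them for each, and for Osr1 without MEF replicate 1 (-0.49, adjusted p = 0.673).

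The progenitors made from fibroblasts were then compared with those from muscle. In bulk iMPCs against bulk myoblasts, 7 members were higher (10.9% of all genes) and 2 lower (8.7%). Pdgfra (7.50), Pdgfrb (6.75, adjusted p = 5.24e-06), Thy1 (5.52, adjusted p = 2.53e-05), Twist2 (4.96), Twist1 (4.87), Snai1 (1.54) and Prrx1 (1.35) were the higher ones, and Prrx2 (-1.51) and Snai2 (-1.31) the lower. Without myoblast replicate 3, the library low in muscle genes, the calls of Prrx1 and Prrx2 ended, as they did without iMPC replicate 2 (Prrx1) or 3 (Prrx2). The Pdgfra value rested in size on iMPC replicate 2: without it the difference was 4.79 (adjusted p = 0.00195). Among the sorted Pax7-GFP+ cells 2 remained (12.4% of all genes higher): Pdgfrb by 4.12 (SE 0.83, adjusted p = 1.4e-04) and Pdgfra by 3.29 (SE 1.23, adjusted p = 0.0279). The Pdgfrb groups did not overlap, 53.3 to 135 CPM against 0 to 16.7, although a fit of only these groups gave an adjusted p of 0.0794. The Pdgfra difference turned to -0.34 (adjusted p = 0.872) without replicate 1 of the sorted iMPC cells. Its call also ended without replicate 1, 2 or 3 of the sorted myoblasts (adjusted p = 0.0646, 0.0553 and 0.0943). Against day 10 with F/R/C, bulk iMPCs were lower in Prrx2 (-1.58, adjusted p = 0.0154) and Snai1 (-1.77, adjusted p = 4.09e-05), beside 6.24% of all genes. The Prrx2 call ended without iMPC replicate 3 (-1.44, adjusted p = 0.063).

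**Figure D4:**
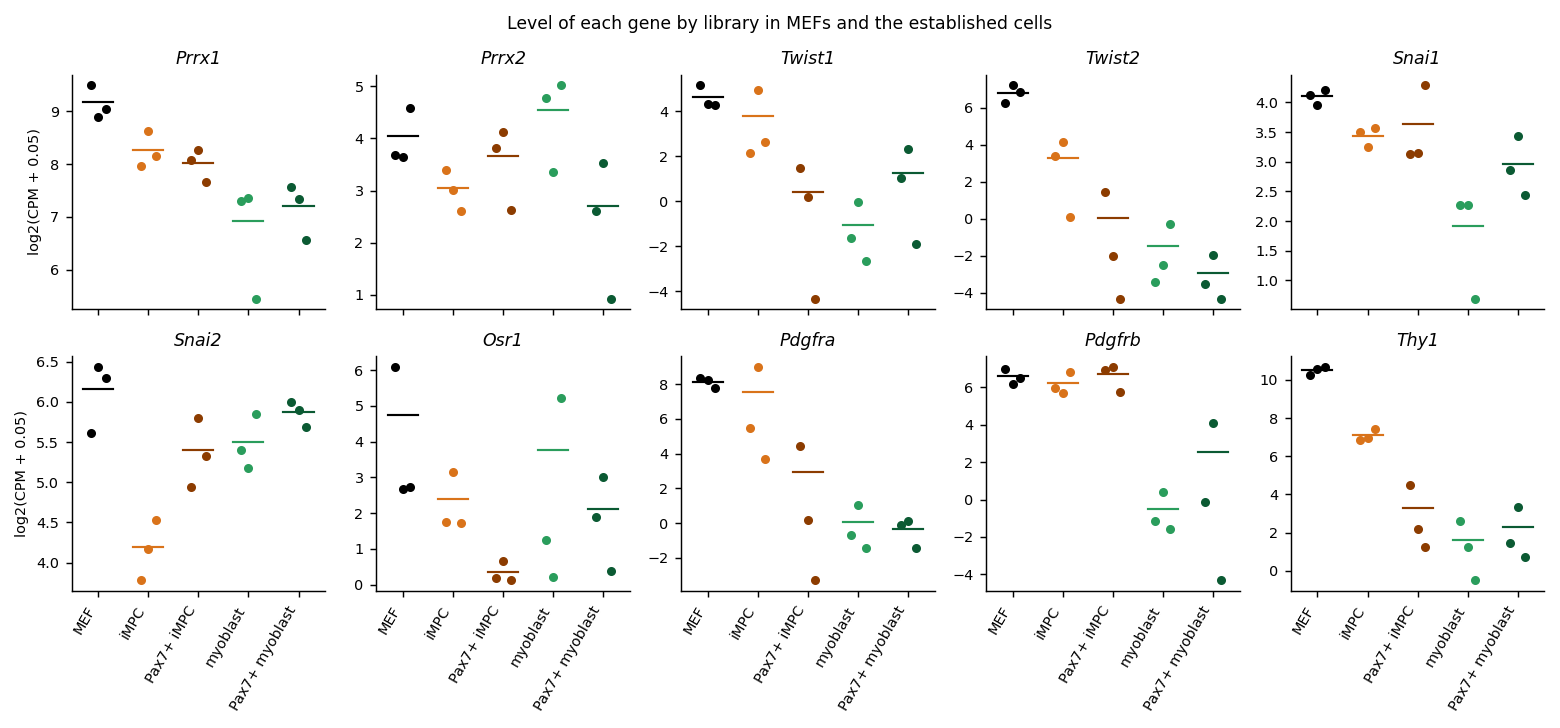
Level of each gene as log2(CPM + 0.05) in MEFs, bulk iMPCs, Pax7-GFP+ iMPCs, myoblasts and Pax7-GFP+ myoblasts, with 1 point per library and a bar at the group mean. Pdgfrb separates both iMPC groups from both myoblast groups, and Thy1 and Twist2 are far below MEFs in all sorted cells.

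Other genes of the same pathways were described from lists, by counts only. Over all genes tested, 10.1% were lower and 12.3% higher on day 2 of MyoD alone and 4.64% and 14.3% on day 10, and with F/R/C 8.93% and 11.5% on day 2 and 15.8% and 19% on day 10. Of 26 other mesenchymal surface genes, 11 were lower and 0 higher on day 2 of MyoD alone, and 5 lower and 2 higher on day 10. With F/R/C, 9 were lower and 0 higher on day 2, and 19 lower and 3 higher on day 10. The median log2 fold change on day 10 was -0.53 with MyoD alone and -1.68 with F/R/C, beside all-gene medians of 0.01 and 0.08. Cd34, a sialomucin of progenitor cells, went from 47.5 CPM to 7.69 with MyoD alone (-2.62, SE 0.94, adjusted p = 0.0339) and 1.36 with F/R/C (-5.11, SE 1.06, adjusted p = 1.63e-04), and Ly6a (Sca-1) from 222 to 13.0 CPM with F/R/C (-4.09, SE 1.14, adjusted p = 0.00324). On day 10 with MyoD alone Cd34 was at 20.4 CPM in replicate 3 and at most 1.39 CPM in the other two, and MEF replicate 1 held 12.2, so these groups overlapped. Mcam, an adhesion molecule of pericytes, was called higher with MyoD alone (1.45, SE 0.51), but on 1 library: day 10 held 389, 52.1 and 80.7 CPM and MEFs held 53.7, 55.9 and 81.7. The nerve growth factor receptor gene Ngfr was at 3 reads or fewer in each MEF library and at 13.5 CPM on day 10 with F/R/C. Of 15 matrix genes, day 10 had 4 lower under MyoD alone and 9 under F/R/C. Fn1, fibronectin, fell with F/R/C from 10150 to 583 CPM (-4.12, SE 0.78, adjusted p = 4.82e-05) and Fbln2 from 2087 to 22.2 (-6.55, SE 1.03, adjusted p = 3.61e-06), while Col5a2 rose with MyoD alone from 782 to 3058 (1.97, SE 0.47, adjusted p = 0.00194). With MyoD alone Dcn fell from 182 to 9.93 CPM (-4.18, SE 1.39, adjusted p = 0.0226) and Lum from 83.0 to 2.62 (-4.95, SE 1.42, adjusted p = 0.00941). The Lum libraries overlapped: MEFs held 221, 20.8 and 7.16 CPM, and replicate 3 of day 10 held 7.25.

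Of the other mesenchymal transcription factors (27 tested), 1 was lower and 4 higher on day 10 of MyoD alone and 7 lower and 4 higher with F/R/C. Day 10 counts here and below stand beside 4.64% of all genes lower and 14.3% higher with MyoD alone, and 15.8% and 19% with F/R/C. Runx1 rose with MyoD alone from 32.6 to 121 CPM (1.89, SE 0.30, adjusted p = 1.22e-05), Runx2, a bone factor, fell with F/R/C from 40.5 to 4.72 CPM (-3.09, SE 0.61, adjusted p = 8.19e-05), and Zeb2, a repressor of epithelial genes like the SNAIL factors, rose with F/R/C from 43.8 to 157 CPM (1.845, SE 0.19, adjusted p = 3.73e-09). Of 10 tested PDGF ligands and receptor partners, 0 were lower and 1 higher on day 10 of MyoD alone, and 2 lower and 3 higher with F/R/C. The ligand Pdgfb was at 0.0366 CPM in MEFs and at 6.62 CPM under MyoD alone on day 10 and 5.13 under F/R/C, while the ligand Pdgfd fell with F/R/C from 42.7 to 4.71 CPM (-3.17, SE 0.56, adjusted p = 1.78e-05). Of 11 tested epithelial genes known as targets of SNAIL and TWIST repression, 2 were lower and 3 higher on day 10 of MyoD alone and 1 lower and 1 higher with F/R/C. Of 18 partners and paralogs of the members, 3 were lower and 2 higher on day 10 of MyoD alone, and 2 lower and 5 higher with F/R/C, among them Ly6e, a lower one, at 69.2 CPM against 312 in MEFs (-2.17, SE 0.57).

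**Figure D5:**
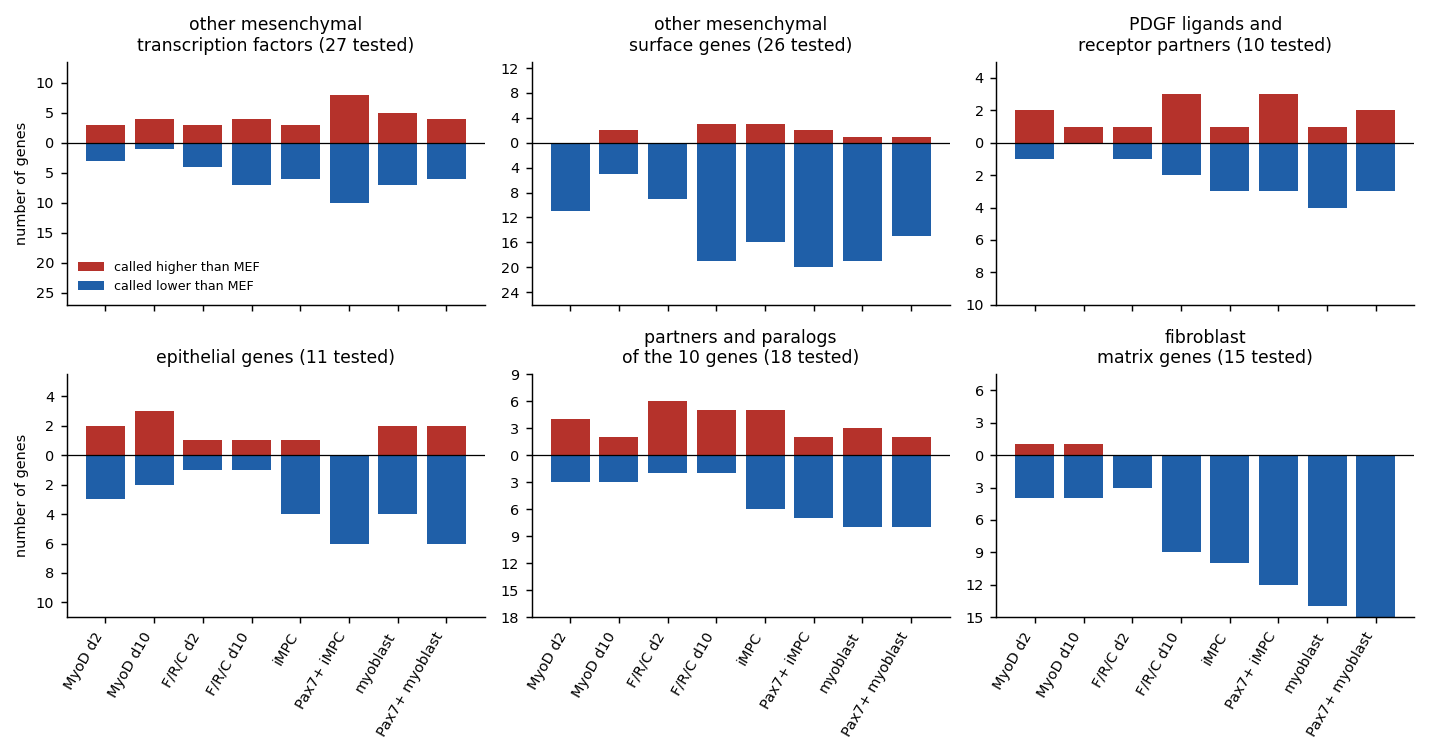
Number of genes called higher (up, red) and lower (down, blue) than MEFs in each list of related genes, on days 2 and 10 of each route and in the 4 other cell groups. The surface gene list goes from 9 lower on day 2 to 19 on day 10 with F/R/C and from 11 to 5 with MyoD alone.

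Patterns over the 15 group means of log2 CPM were compared as a description, since groups share reagents and time points and MEF libraries. Twist2 and Thy1 were each among the other's closest genes (r = 0.99), and Thy1 was among the 2 closest to Twist1 (0.97). Twist1 and Twist2 had r = 0.945, whereas Prrx1 and Prrx2 had -0.025 and Snai1 and Snai2 -0.748. The genes closest to the other members were Klf12 for Prrx1 (0.92), Zcchc17 for Prrx2 (0.95), Rgs16 for Snai1 (0.96), Dclre1a for Snai2 (0.95), Slc14a1 for Osr1 (0.91), Tfap2a for Pdgfra (0.97) and Grb10 for Pdgfrb (0.96).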

How the data were processed

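Estimated counts and TPM per transcript were deposited by the authors, 1 table per library. The submitters' processing notes name bcl2fastq 2.19, Trimmomatic 0.36, kallisto 0.44, edgeR 3.28 and GRCm38.p6 without roles, and the labels' protocols give a stranded poly-A kit. Transcript names were matched to GENCODE M21 (GRCm38): 121104 of 121843 matched (99.4 to 99.8% of reads), and estimated counts were summed to 35675 genes and rounded. Prrx1, Snai2, Osr1, Pdgfra and Thy1 have fractional counts, so some of their reads were shared with other transcripts. Counts were tested with edgeR 4.0.16 (R 4.3.3), 1 quasi-likelihood model of 45 libraries with 15 group means (30 residual degrees of freedom), TMM scaling (factors 0.842 to 1.21) and edgeR's filter on low counts. TPM was used for levels between genes. SE is the log2 fold change divided by the square root of F. Members and lists were chosen with earlier results of these data known. Named genes are the members, up to 4 called genes per list with the largest changes on day 10 of each route, and the 2 genes closest to each member. DESeq2 1.42.0 and limma 3.58.1 were alternatives.

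Replicates of a group differed beyond sampling noise (lowest chi-square per degree of freedom 26.0 over 45 pairs) and were counted separately. Same-numbered libraries deviated together in every pair on days 2, 4 and 6 between the routes (mean r 0.52, 0.40 and 0.37) but not in every pair on day 8 (0.21) and day 10 (0.22). They also did so between all consecutive days within each route and between days 2 and 10 of MyoD alone, which makes 12 of the 34 pairs of groups compared. The numbers were taken as pairing in these 12 only, and no label says what they mark. On counts simulated for day 10 with F/R/C against MEFs (17118 genes), 29 of 100 genes changed 2-fold and 84 of 100 changed 4-fold were called, with 4 false calls. A change of exactly 2-fold lies at the fold limit of the call, so many such genes miss it at any depth. The 29 of 100 therefore does not measure what depth and replicate number alone would miss.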

Additional observations from a re-analysis of the deposited data

Results flagged for a closer look

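One value was singled out because the effect of F/R/C differed between days in a direct test: for Prrx1 the difference between MyoD with F/R/C and MyoD alone on day 10 minus that on day 2 was -2.16 on the log2 scale (edgeR's quasi-likelihood test, adjusted p = 0.0264). Its libraries with F/R/C were higher on day 2 and overlapped those of MyoD alone on day 10. The call was kept in 12 of 22 alternatives, with adjusted p from 0.00999 to 0.161, and the direction was the same in all of them.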

How the results depend on the processing

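Of 125 called log2 fold changes of the members, 124 kept direction and call with DESeq2's size factors, 116 without the filter on low counts, 124 with the replicate block, 124 with DESeq2, 114 with limma on TPM and 103 when only the groups compared were fitted. Leaving out single libraries gave 828 values, of which 688 kept the call, 138 lost it and 2 reversed. The number of members called changed as follows, and the cause was not tested. Day 4 with F/R/C against MEFs went from 3 to 5 with the replicate block and 6 with only those groups. F/R/C against MyoD alone went from 1 to 3 on day 2 with only those groups and 2 with no minimum fold, from 2 to 4 on day 4, from 1 to 2 on day 6, and from 2 to 1 on day 10 (no filter, limma on TPM, only those groups). The interaction went from 1 to 0 without the filter and to 2 with the replicate block, DESeq2 or only those groups. With only the groups compared, iMPCs against myoblasts went from 9 to 5, sorted iMPC against sorted myoblasts from 2 to 0 (1 with limma on TPM), sorted against bulk iMPCs from 5 to 3 and sorted against bulk myoblasts from 3 to 0 (1 with limma on TPM). Day 10 against day 2 of MyoD alone went from 0 to 1 with limma on TPM. Gene and day pairs erased went from 9 to 19 (limit 25%) or 3 (limit 5%) with MyoD alone and from 1 to 16 or 0 with F/R/C. With 1 replicate or library left out, MyoD alone against MEFs gave 5 to 7, 5 to 8, 5 to 8, 2 to 7 and 1 to 7 members on days 2 to 10, and F/R/C against MEFs 2 to 4, 2 to 4, 2 to 6, 2 to 7 and 5 to 9. F/R/C against MyoD alone gave 0 to 1 on days 2, 6, 8 and 10, 0 to 2 on day 4, 0 to 3 over the mean of days and 0 to 3 in the interaction. Against MEFs, iMPCs gave 3 to 6, sorted iMPC cells 4 to 6, myoblasts 7 to 8 and sorted myoblasts 6 to 9. iMPCs against myoblasts gave 6 to 10, the sorted pair 1 to 5, sorted against bulk iMPCs 2 to 5, sorted against bulk myoblasts 0 to 4, iMPCs against day 10 with F/R/C 1 to 3, and day 10 against day 2 gave 0 with MyoD alone and 1 to 3 with F/R/C. Erased pairs gave 5 to 10 with MyoD alone (5 without MEF replicate 1), 1 with F/R/C and 15 to 17 in the other cells. Pdgfra in sorted iMPC against sorted myoblasts lay between -0.23 and 4.11 without 1 numbered replicate of every group (-0.23 without replicate 1), and reversed to -0.34 without replicate 1 of sorted iMPC cells alone. Pdgfrb in sorted against bulk myoblasts lay between -0.52 (without replicate 2 of sorted myoblasts) and 4.13 (without replicate 2 of bulk myoblasts). Where the numbers pair the groups (the routes on days 2, 4 and 6, consecutive days within a route, days 2 and 10 of MyoD alone), the replicate block changed no call. That block was a shared effect per replicate number over all 45 libraries, including groups whose numbers do not pair. It therefore cannot decide what pairing within those groups alone would change.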
